A study of Mus musculus with 6 samples.

Results

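The nuclear genes for the mitochondrial respiratory chain and ATP synthase were followed through a lipopolysaccharide (LPS) time course in mouse macrophages. Members were the genes whose symbol begins with Nduf (complex I), Uqcr (complex III), Cox4 to Cox8 (complex IV) or Atp5 (complex V), together with Sdha, Sdhb, Sdhc and Sdhd (complex II) and Cycs (cytochrome c). The array held 159 probe sets annotated to 1 such symbol, for 85 genes of the 12394 genes with such a probe set. Where a gene had several probe sets, the one with the brightest mean over the 6 arrays stood for it. A filter that asked for a signal above the array median on at least 1 of the 6 arrays kept 81 of the 85, among 7510 genes tested. The filter removed Cox6b2, Cox7a1, Cox7c and Cox8b, all of complex IV.

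The cells were bone marrow-derived macrophages, grown from C57BL/6J marrow in conditioned medium of L929 cells, a fibroblast line that secretes the macrophage growth factor. Macrophages of wild-type mice and of mice lacking IκBβ, an inhibitor of NF-κB encoded by Nfkbib, received 1 µg/ml LPS, the bacterial cell wall component sensed by Toll-like receptor 4, for 0, 1 or 5 h. Each genotype and time had 1 array of the Mouse Genome 430A 2.0 type, so there were 6 arrays and no replicate of any condition. The sources used here do not say whether arrays of a genotype share a mouse or a culture, so the tests measure only the spread between these arrays.

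Complexes I to IV pass electrons from NADH and succinate to oxygen, complexes I, III and IV pump protons across the inner mitochondrial membrane, and complex V, the ATP synthase, uses the proton gradient to make ATP. Complex I takes electrons from NADH, complex II from succinate, complex III hands them to the soluble carrier cytochrome c, and complex IV delivers them to oxygen. Macrophages activated by LPS are known for a turn from respiration towards glycolysis and for the accumulation and oxidation of succinate. Complex II also belongs to the citric acid cycle. The subunits encoded by mitochondrial DNA lie outside the symbols chosen and were not analysed here.

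Nfkbib, the deleted gene, read 477, 3330 and 5007 in wild type at 0, 1 and 5 h and 30.5, 136 and 56.1 in knockout. Xist, the RNA of the inactive X chromosome, was at 52.1 to 80.4 on the wild-type arrays and at 2149 to 5634 on the knockout arrays, and the Y-linked gene Eif2s3y was at 570 to 860 and at 0.896 to 10.7. Genotype and sex of the mice thus cannot be told apart. All 9 macrophage markers lay above the array median on every array, with a summed signal of 83155 to 93493. The summed signal of 5 measured B cell markers was 3717 at 0 h and 452 at 5 h in wild type, of which Ighm gave 3371 and 268, with 3902 and 438 in knockout, of which Ighm gave 3571 and 304, and the part of these cells in the LPS changes below was not tested. Of 6 measured neutrophil markers, none exceeded the array median before 5 h and 2 did at 5 h, when their summed signal was 719.5 in wild type and 1334 in knockout, most of it S100a8, against 293 and 318 at 0 h. Of 7 measured T and NK cell markers, none exceeded the array median except 1 on the knockout array at 5 h. In RNA from a whole culture, fewer cells of a type and less RNA per cell cannot be told apart.

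At 5 h of LPS most respiratory chain genes read lower than at 0 h and a few read higher. By limma's moderated test over all genes tested, with genotype and time as additive terms, 57 of the 81 members were lower (70.4%) and 4 were higher at an adjusted p under 0.05, while 20 were not called. Of all genes tested, 54% were lower and 19.5% were higher by the same rule. The median log2 change of the members was −0.59, and that of all genes tested was −0.57. The members were brighter than most genes on the array: among the 2231 genes tested with a mean signal of 1000 or more, a comparison chosen after the values were seen, 42.3% were lower, 33.3% were higher and the median change was −0.16. In wild type 72 of the 81 members, and in knockout 70, lay below their own 0 h value, beside 5059 and 5161 of the 7510 genes tested.

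The deposited arrays were scaled to a common trimmed mean, while the array median fell from 113 to 70.7 in wild type and from 117 to 65.2 in knockout between 0 and 5 h. Centring each array on its median moved the median change of all genes tested from −0.57 to 0.19, and that of the members from −0.59 to 0.17. The share of calls that were higher at 5 h was 26.5% over all genes at the deposited scale, 58.9% with median centring, 39.2% with quantile normalization and 19.5% with scaling on the spiked-in controls. Under all 4 scalings, 10 members (12.3%) were lower and 3 (3.70%) were higher, beside 26.8% and 14.7% of all genes tested. The 10 were Ndufa6, Ndufa8, Ndufb10, Ndufb11, Ndufs8, the assembly factors Ndufaf4 and Ndufaf7, Sdhb, Cox7a2l and Atp5g2, and they were also called in each of the 17 settings, which are the deposited scale and 16 alternatives, those that leave out an array included. Of these, Ndufaf7 passed the filter only through the 0 and 1 h arrays, where it was high, though 1 of the settings used no filter. The 3 were Cycs, Ndufb1 and Ndufs4, and of these Cycs alone was called in each of the 17 settings.

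**Figure D1:**
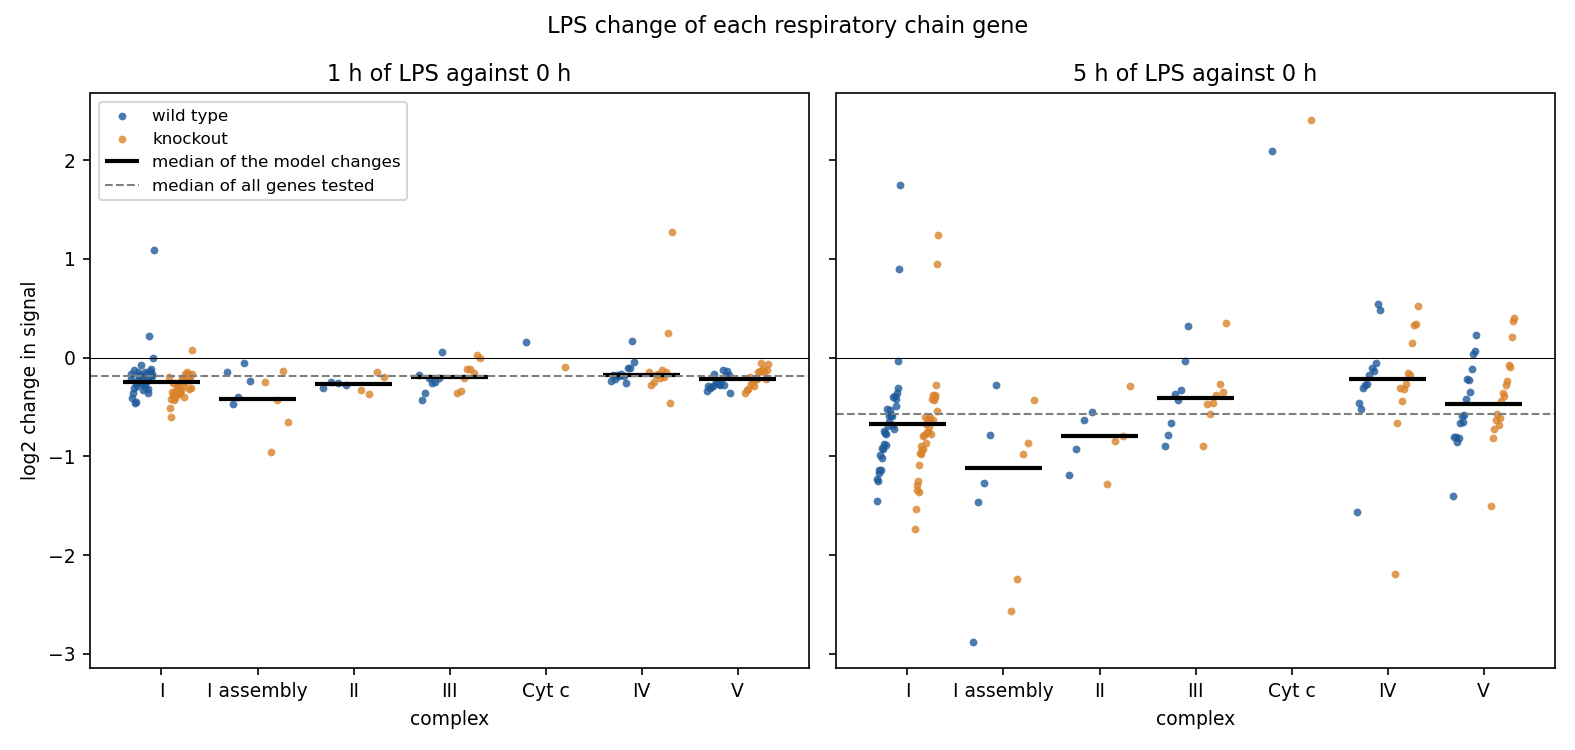
Each point is the log2 change in signal of 1 member against 0 h (y axis) on the arrays of wild type or knockout, by complex (x axis), at the deposited scale, after 1 h (left) and 5 h (right) of LPS. Black bars are the medians of the fitted changes and the dashed line is the median of all genes tested. At 5 h the bars lie at −0.68 for complex I, −0.80 for II, −0.41 for III, −0.22 for IV and −0.47 for V, but at 0.09, −0.04, 0.35, 0.55 and 0.29 after median centring. Cytochrome c stands at 2.09 and 2.41.

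Complex I was the largest group, with 34 members besides the assembly factors. At 5 h 30 of the 34 were lower, 2 were higher and 2, Ndufb6 and Ndufab1, were not called. The median change was −0.68 at the deposited scale, −0.76 with quantile normalization and −0.94 with spike-in scaling, but 0.09 with median centring, where 5 were lower and 4 higher. Within each genotype the median was −0.69 in wild type and −0.75 in knockout. Complex I has core subunits that hold flavin and iron-sulphur clusters and many accessory subunits around them, and both kinds were among the genes that fell.

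Ndufa6, an accessory subunit that docks the mitochondrial acyl carrier protein on the complex, had the largest fall among complex I subunits. Its signal was 2466, 2203 and 902 in wild type, with 2398, 2088 and 722 in knockout at 0, 1 and 5 h. Both 5 h arrays lay below the other 4, and the fitted log2 change was −1.59 ± 0.12 (SE, adjusted p 0.000877), a 3.01-fold fall.

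Ndufs8, a core subunit with iron-sulphur clusters near the quinone site, read 2989, 2572 and 1277 in wild type, with 3144, 2215 and 1090 in knockout. The change was −1.38 ± 0.13 (adjusted p 0.00139). Of its 6 probe sets above the median, 5 changed by −1.04 to −1.38, and the dimmest, with a mean signal of 177, by 0.81. That dimmest probe set exceeded the array median only at 1 and 5 h. Ndufa8, an accessory subunit on the intermembrane side, read 2554, 1920 and 1078 in wild type, with 2457, 1837 and 971 in knockout, a change of −1.29 ± 0.10 (adjusted p 0.00091). Its signal was lower on each later array of both genotypes.

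Ndufb10 and Ndufb11 are accessory subunits of the membrane arm. Ndufb10 read 1455, 1138 and 646 in wild type, with 1540, 1016 and 631 in knockout (−1.23 ± 0.12). Ndufb11 lies on the X chromosome and read 3680, 3384 and 1668 in wild type, with 3841, 3026 and 1613 in knockout (−1.20 ± 0.11, adjusted p 0.00141). The X-linked gene Ndufa1, which encodes a small membrane subunit, read 5279, 4547 and 3766 and 4968, 4254 and 3689, a change of −0.46 ± 0.10 that became 0.30 with median centring. Neither X-linked gene was called between the genotypes: knockout minus wild type was −0.05 for Ndufb11 and −0.07 for Ndufa1, with adjusted p of 0.869 and 0.787.

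Among the other core subunits, Ndufs7, which carries the last iron-sulphur cluster before the quinone, went from 1744 to 883 in wild type and from 1678 to 654 in knockout at 5 h. Ndufv1, which binds NADH and flavin, went from 1051 to 732 and from 1198 to 656. Ndufs1, the largest subunit, went from 802 to 555 and from 869 to 517. All 3 were called lower, with both 5 h signals below both 0 h signals, but with median centring Ndufv1 stood at 0.07 and Ndufs1 at 0.12.

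Ndufb1 and Ndufs4 were the complex I genes that rose. Ndufb1, a small accessory subunit of the membrane arm with a single probe set, read 361, 771 and 1217 in wild type, with 417, 439 and 984 in knockout. Its change at 5 h was 1.50 ± 0.27 (adjusted p 0.00835), and at 1 h its signal was 771 in wild type but 439 in knockout. Ndufs4, an accessory subunit whose loss in mice gives a Leigh-like brain disease, read 615, 615 and 1147 in wild type, with 542, 482 and 1044 in knockout, a change of 0.92 ± 0.11 (adjusted p 0.00281). Its 3 probe sets did not move together: the others, with mean signals of 136 and 89.8, changed by 0.27 and −0.96. The rise of Ndufs4 therefore belongs to its brightest probe set.

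RefSeq's promoter table (GRCm38.p6) held 76 windows, each from 250 bases before to 50 after a transcription start, for 71 of the 85 members. Motifs of factors known to act on respiratory genes were searched on both strands as exact letters: GCGCATGCG and its shorter part GCGCATG for NRF1, CCGGAAG for ETS factors such as GABP, AAGATGGCG for YY1, AAGGTCA for oestrogen-related receptors and, chosen after a sequence was seen, TGACGTCA, the cyclic AMP response element. GCGCATGCG contains GCGCATG, so the first 2 overlap. GCGCATGCG was in 13.2% of member windows, 3.86% of the windows of genes tested and 1.75% of all 32851 windows. GCGCATG was in 19.7%, 7.21% and 3.91%, and CCGGAAG in 23.7%, 18.8% and 8.86%. AAGATGGCG was in 7.89%, 3.22% and 1.40%, AAGGTCA in 9.21%, 3.19% and 4.72%, and TGACGTCA in 5.26%, 3.02% and 1.79%. A match is a description of letters and not of binding.

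The window before the start of Ndufa6, the complex I gene with the largest fall, lies at chr15:82354292-82354541 on the minus strand of GRCm38.p6 and is shown 5′ to 3′. Capitals mark GCGCATG read on the other strand.
Ndufa6: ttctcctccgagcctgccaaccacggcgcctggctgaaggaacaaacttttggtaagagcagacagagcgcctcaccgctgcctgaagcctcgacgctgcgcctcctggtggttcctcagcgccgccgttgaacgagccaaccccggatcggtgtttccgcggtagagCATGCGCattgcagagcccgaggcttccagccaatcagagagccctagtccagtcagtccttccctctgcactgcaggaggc
GCGCATG on either strand was in the windows of 15 members, 19.7% of member windows. Of the 10 genes lower under every scaling, these were Ndufa6, Ndufa8, Ndufaf4, Sdhb and Atp5g2. The rest were Cycs, which rose, and Atp5k, Atp5l, Cox5b, Cox6a1, Ndufaf5, Ndufb6, Ndufb8, Uqcr11 and Uqcrc1, which were not among the 10. A link between the letters and the falls was not tested. In Ndufs4 the letters AAGATGGCG began 35 bases after the start.

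Complex I assembly factors help build the complex without remaining in it. At 5 h 4 of the 5 measured were lower, with a median of −1.12 (−1.26 in wild type and −0.98 in knockout), or −0.36 with median centring. Ndufaf7, a methyltransferase that modifies a core subunit during assembly, read 134, 121 and 3.18 in wild type, with 149, 125 and 25.1 in knockout. It exceeded the array median only on the 4 arrays at 0 and 1 h, so it passed the filter only through the times at which it was high. The wild-type signal at 5 h lay under the floor of 18.2 to which low signals were raised, so the change of −2.88 there is a bound, and the knockout change was −2.57. Ndufaf4 read 222, 161 and 80.6 in wild type, with 253, 131 and 53.3 in knockout (−1.86 ± 0.22, adjusted p 0.00244). Ndufaf1 went from 313 to 130 and from 318 to 161, and Ndufaf3 from 524 to 305 and from 519 to 286. Ndufaf5 was not called, at −0.36 ± 0.14, and its change became 0.41 with median centring.

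All 4 genes of complex II were lower at 5 h, with a median of −0.80 at the deposited scale and −0.04 with median centring. By the brightest probe sets Sdhb, the iron-sulphur subunit, moved most: it read 4753, 3844 and 2083 in wild type, with 4488, 3586 and 1844 in knockout (−1.24 ± 0.10, adjusted p 0.001). Its signals at 5 h were below those of every earlier array. Sdhd, a membrane anchor, read 2079, 1748 and 1095 and 2059, 1595 and 1150 (−0.88 ± 0.11). Sdha, the flavoprotein that oxidizes succinate, read 3397, 2847 and 2188 and 3287, 2979 and 1901, a change of −0.71 ± 0.12 that became 0.05 with median centring. Sdhc, the other membrane anchor, read 2318, 1920 and 1583 and 2074, 1814 and 1694, a change of −0.42 ± 0.12 that became 0.34. A second probe set of Sdha, with a mean signal of 1523, changed by −1.27 at the deposited scale, and those of Sdhc and Sdhd by −0.19 and −0.31. By the brightest probe sets, Sdhb alone of the 4 was called under all 4 scalings.

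Of 8 complex III genes, 5 were lower at 5 h and 1 was higher, with a median of −0.41 (0.35 with median centring). Uqcr11, a small subunit, read 1692, 1501 and 912 in wild type, with 1560, 1218 and 838 in knockout (−0.89 ± 0.11, adjusted p 0.0029). Uqcr10, another small subunit, changed by −0.63 ± 0.13 at its brightest probe set (0.13 with median centring), and its other probe sets by as much as −1.54. Uqcrq changed by −0.62 ± 0.11, or 0.15 with median centring. Uqcrfs1, the Rieske iron-sulphur protein that moves electrons towards cytochrome c, read 2031, 2120 and 2544 in wild type, with 1982, 1982 and 2537 in knockout. Both 5 h signals exceeded the other 4, and the change was 0.34 ± 0.10 (adjusted p 0.0378), but 0.20 with quantile normalization and 0.08 with spike-in scaling, and it was called under neither. At the deposited scale the call was lost whichever array was left out. Uqcrb and Uqcrh, the hinge protein, were not called, at −0.30 and −0.19, and both were above 0 with median centring.

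Cycs gave the largest rise of any member. It encodes cytochrome c, which carries electrons from complex III to complex IV and, when released from mitochondria, activates the caspase cascade of apoptosis. Its signal was 1917, 2144 and 8187 in wild type, with 2094, 1961 and 11146 in knockout at 0, 1 and 5 h. The 5 h signals were far above the other 4, which lay between 1917 and 2144. The change at 5 h was 2.25 ± 0.17 on the log2 scale, a 4.77-fold rise (adjusted p 0.000829), and ranged from 1.99 to 3.02 over the 4 scalings. Its other probe sets changed by 2.67 and 2.56, so all 3 rose. At 1 h the change was 0.03 (adjusted p 0.903), with a sign that turned to −0.04 with spike-in scaling.

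The window before the Cycs start lies at chr6:50566570-50566819 on the minus strand and is shown because this gene moved against most of the others. Capitals mark TGACGTCA, beginning 169 bases before the start, and GCGCATGCG read on the other strand, beginning 61 bases before it.
Cycs: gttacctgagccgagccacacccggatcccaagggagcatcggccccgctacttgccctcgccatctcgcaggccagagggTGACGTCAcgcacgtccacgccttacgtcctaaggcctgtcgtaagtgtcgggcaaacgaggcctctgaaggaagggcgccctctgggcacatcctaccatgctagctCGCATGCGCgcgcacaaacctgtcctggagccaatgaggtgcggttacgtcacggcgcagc
Of the 76 member windows, 4 held TGACGTCA: those of Cycs, Ndufa10, Ndufb2 and Uqcrfs1. Ndufa10 was lower at 5 h (−0.84 ± 0.11, or −0.07 with median centring) and Ndufb2 was lower as well (−0.51 ± 0.14, or 0.25 with median centring). Uqcrfs1 stood at 0.34, or 1.10 with median centring. A link between these letters and the changes was not tested.

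**Figure D2:**
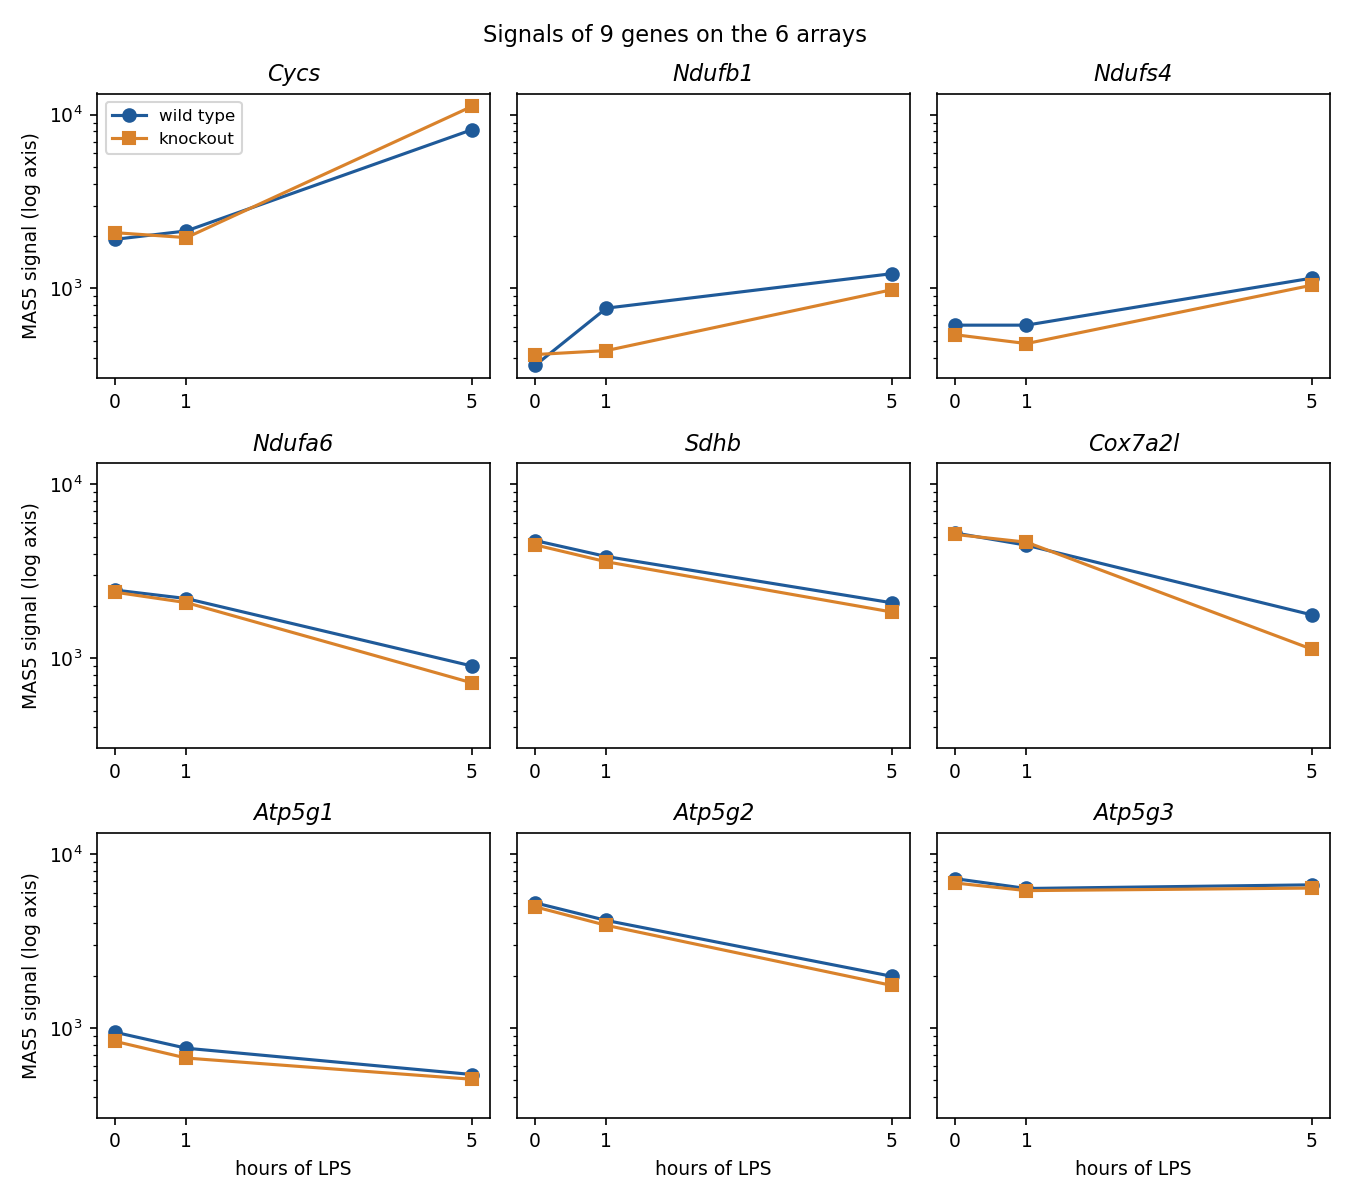
The y axis is the MAS5 signal on a log axis and the x axis is the time in LPS in hours, with 1 point for each array of wild type (circles) and knockout (squares). Cycs, Ndufb1 and Ndufs4 end above their 0 h signals, Ndufa6, Sdhb, Cox7a2l, Atp5g1 and Atp5g2 end below them, and Atp5g3 stays between 6164 and 7222. The scale is as deposited.

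Complex IV, cytochrome c oxidase, had 16 members, of which 12 passed the filter. At 5 h 4 were lower, none was higher and 8 were not called. The median change was −0.22 at the deposited scale, the same to 2 decimals in both genotypes, −0.50 with quantile normalization and −0.48 with spike-in scaling, but 0.55 with median centring, where 9 were called higher and 1 lower. Cox7a2l was the exception in size. It is named for its likeness to Cox7a2 and is known as a factor that joins complexes III and IV into supercomplexes. Its signal was 5251, 4467 and 1775 in wild type, with 5154, 4650 and 1126 in knockout, a change of −1.88 ± 0.21 (adjusted p 0.0023), a 3.68-fold fall. The change was −1.56 in wild type and −2.19 in knockout, and its 3 probe sets gave −1.88 to −2.23 in the mean.

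The other subunits of complex IV had smaller differences. Cox4i1, the largest of the nuclear-encoded subunits, read 9751, 8555 and 8026 in wild type, with 9021, 8069 and 7224 in knockout, and was not called (−0.30 ± 0.10, or 0.46 with median centring). Cox6a1, Cox6b1 and Cox8a were lower, at −0.37, −0.42 and −0.56, and all 3 were above 0 with median centring, at 0.39, 0.35 and 0.20. Cox5a, a subunit on the matrix side, read 10037, 9326 and 9134 and 8711, 7874 and 9628, a change of 0.00 ± 0.13 that became −0.19 with quantile normalization and −0.26 with spike-in scaling. Cox5b, Cox6c and Cox7a2 were not called, at −0.17, −0.14 and −0.27, and stood above 0 with median centring. Ndufa4, named as a complex I gene but since found in complex IV, went from 2228 to 1476 and from 2131 to 1264, a change of −0.67 ± 0.11 that became 0.09 with median centring.

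Complex IV has isoforms for single tissues, and these were dim. Cox7a1 and Cox8b of heart and muscle read at most 63.8 and 29.3 on any array, and Cox6b2 of testis at most 31.5. Cox6a2 of heart and muscle read 129 to 194, Cox8c of testis 132 to 256 and Cox4i2 of lung 22.5 to 72.5, and at the deposited scale none of them was called in any comparison. Cox7c is a subunit of all tissues, yet its probe set read only 23.3 to 61.6 and exceeded the median of no array, so it gives no measure of that subunit.

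In complex V 10 of 17 genes were lower at 5 h, none was higher and 7 were not called, with a median of −0.47 (0.29 with median centring). The proton-driven ring of the enzyme is built of subunit c, and 3 genes, Atp5g1, Atp5g2 and Atp5g3, encode the same mature protein with different import sequences. They changed to different extents. Atp5g2 read 5244, 4151 and 1981 in wild type, with 4974, 3890 and 1756 in knockout (−1.45 ± 0.10, adjusted p 0.000706), a 2.74-fold fall. Atp5g1 read 945, 764 and 540 in wild type, with 837, 671 and 507 in knockout (−0.77 ± 0.10, adjusted p 0.00348). Atp5g3 read 7222, 6339 and 6654 in wild type, with 6820, 6164 and 6376 in knockout and was not called (−0.11 ± 0.10, adjusted p 0.376). With median centring Atp5g2 stood at −0.69 and Atp5g3 at 0.65, and with quantile normalization at −1.64 and −0.39. Their difference in change was not tested as such, but in each genotype it was over 1 log2 unit, with −1.40 against −0.12 in wild type and −1.50 against −0.10 in knockout.

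The windows before 1 RefSeq start of each subunit c gene are set side by side because the genes encode 1 mature protein and moved differently. All 3 lie on the minus strand, at chr11:96075632-96075881, chr15:102671048-102671297 and chr2:73911327-73911576. The 3 gene spans end at 96075694, 102671047 and 73912464. The Atp5g2 window thus abuts its gene, while that of Atp5g1 lies partly and that of Atp5g3 wholly within it, so they are not like regions. Capitals mark GCGCATGCG, read on both strands, in Atp5g2 and AAGGTCA, read on the other strand, in Atp5g3.
Atp5g1: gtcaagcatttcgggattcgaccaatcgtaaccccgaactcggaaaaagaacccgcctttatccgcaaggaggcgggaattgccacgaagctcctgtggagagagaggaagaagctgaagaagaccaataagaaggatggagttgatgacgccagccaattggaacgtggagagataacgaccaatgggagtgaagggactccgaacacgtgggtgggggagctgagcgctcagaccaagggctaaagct
Atp5g2: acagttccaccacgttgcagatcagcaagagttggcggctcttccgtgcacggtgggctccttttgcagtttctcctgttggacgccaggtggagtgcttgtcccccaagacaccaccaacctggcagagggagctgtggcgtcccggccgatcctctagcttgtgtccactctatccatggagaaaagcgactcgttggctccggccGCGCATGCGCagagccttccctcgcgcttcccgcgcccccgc
Atp5g3: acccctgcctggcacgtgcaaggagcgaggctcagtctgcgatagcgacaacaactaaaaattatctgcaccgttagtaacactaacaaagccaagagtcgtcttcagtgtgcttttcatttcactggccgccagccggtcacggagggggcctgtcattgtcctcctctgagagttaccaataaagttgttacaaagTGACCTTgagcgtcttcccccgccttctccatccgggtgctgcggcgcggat
None of the motifs searched was in the Atp5g1 window.

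The catalytic head of the synthase gave other values. Atp5c1, the central stalk that turns within the head, read 6184, 5072 and 3546 in wild type, with 5869, 4694 and 3340 in knockout (−0.81 ± 0.10). Atp5b, the catalytic subunit, read 5927, 4624 and 6949 in wild type, with 4956, 4735 and 6548 in knockout. It was not called against 0 h (0.32 ± 0.12, adjusted p 0.0764) and was higher at 5 h than at 1 h (0.53, adjusted p 0.0216). The latter call was not kept under every scaling. Atp5a1, its partner in the head, was not called, at −0.25 ± 0.11. Atp5d and Atp5e of the central stalk were both lower, at −0.67 ± 0.10 and −0.75 ± 0.11, or 0.09 and 0.02 with median centring. Atp5pb, of the outer stalk, and Atp5md, of the membrane part, read 0.13 and 0.22 above 0 h without a call, and both turned below 0 with spike-in scaling, as Atp5pb did with quantile normalization.

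Brightness differed between the complexes. Among the 81 members, the 40 with a mean signal above 2214 had a median change of −0.46 at 5 h and the other 41 one of −0.64. Within complex I the 10 brighter genes had a median of −0.84 and the 24 dimmer ones of −0.66, and within complex IV the 9 brighter genes had −0.30 and the 3 dimmer ones 0.44. In complex III the 4 brighter genes had −0.35 and the 4 dimmer ones −0.62, in complex V the 14 brighter had −0.44 and the 3 dimmer −0.75, and in complex II the 2 brighter had −0.97 and the 2 dimmer −0.65. The 3 dimmer genes of complex IV were the tissue isoforms Cox4i2, Cox6a2 and Cox8c. Cox4i2 passed the filter only through the wild-type array at 5 h, so the filter favoured its rise. The sign of the difference between brighter and dimmer genes varied with the complex, but some of these groups held only 2 to 4 genes. The part of brightness in the difference between complexes was not tested.

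Most genes with several probe sets above the array median gave like changes. Of 40 such genes, 30 had probe sets within 0.5 log2 units of each other at 5 h, and the median range was 0.26. In 8 genes the probe sets had opposite signs: Ndufs4, Ndufs8, Atp5o, Atp5a1, Cox5a, Cox5b, Cox6c and Cox7a2. The rising probe set of Atp5a1 exceeded the array median only at 5 h, and that of Ndufs8 only at 1 and 5 h. The filter thus favoured their sign. The largest change above 0 was only 0.0042 in Cox5a, 0.0062 in Cox6c and 0.049 in Cox5b. For Atp5o the brightest probe set changed by −0.40 and the other by 0.36, so its call rests on the probe set chosen.

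**Figure D3:**
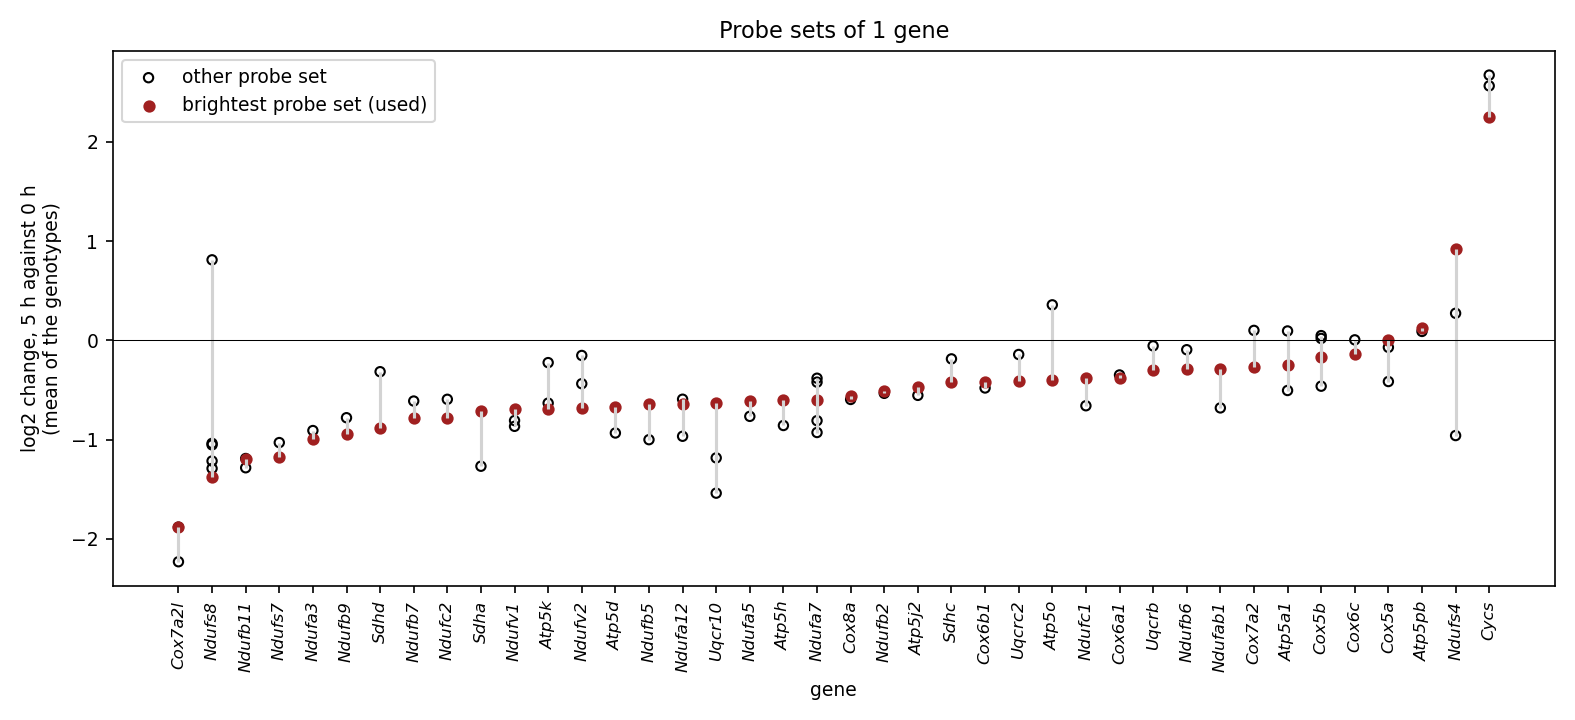
For each of the 40 members with over 1 probe set above the array median (x axis), the y axis gives the log2 change at 5 h against 0 h, as the mean of the genotypes at the deposited scale. Filled points are the brightest probe set, which represents the gene, and open points the others. All 3 probe sets of Cycs lie above 2 and all 3 of Cox7a2l below −1.8, while those of Ndufs4 run from −0.96 to 0.92.

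At 1 h of LPS the same genes had moved little. No member was called in either direction, while 5.42% of all genes tested were higher and 5.91% were lower. At an unadjusted p under 0.05 there were 20 members and 2472 of the 7510 genes. Limma with a trend of variance on signal called 13 members lower and none higher, beside 918 lower and 599 higher of the 7510 genes. Of the 81 members, 75 in wild type and 77 in knockout read below 0 h at the deposited scale, beside 5193 and 5351 of the 7510 genes. The median change was −0.22, or −0.05 with median centring, beside −0.18 and −0.00 for all genes tested. The share of calls that were higher at 1 h was 47.8% over all genes, and 66.3% with median centring. Ndufaf4 had the largest fall (−0.71, adjusted p 0.113), and the lowest adjusted p was 0.0698, for Ndufa3 (−0.44).

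Between 1 and 5 h of LPS 38 members were lower and 4 were higher, beside 45.4% and 18.5% of all genes tested. The 38 are 46.9% of the members, near the share of all genes. By complex, 22 of 34 complex I genes were lower, 3 of 4 in complex II, 1 of 8 in complex III, 1 of 12 in complex IV and 7 of 17 in complex V. The 4 that rose were Cycs (2.22), Ndufs4 (1.01), Ndufb1 (0.91) and Atp5b (0.53). Of the 4, Cycs and Ndufs4 alone were called under all 4 scalings, and they alone whichever array was left out. With median centring 6 members were lower and 23 higher, beside 1815 and 2737 of all genes tested. The higher share of calls over all genes went from 29.0% to 60.1%, and to 42.0% with quantile normalization. Atp5g2, Cox7a2l, Ndufa6, Ndufaf7 and Ndufs8 were lower in each of the 17 settings tried. The comparisons of 5 h with 0 h and with 1 h share the 5 h arrays.

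These calls rest on few arrays. The count of lower genes at 5 h against 0 h, 57, was 32 without the wild-type array at 0 h and 30 without the knockout array at 0 h, and 48 to 50 without any of the others. The 4 higher genes became 2, Cycs and Ndufs4, when either 5 h array was left out. Against 1 h, the 38 lower genes became 12 or 11 when the 1 h array of wild type or of knockout was left out, and 25 when either 0 h array was. The 4 higher genes became 2 when knockout at 1 h, or knockout at 5 h, was left out. Of the members called lower at 5 h against 0 h, 26 were called whichever array was left out, and each of the other 31 lost its call without at least 1 array.

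**Figure D4:**
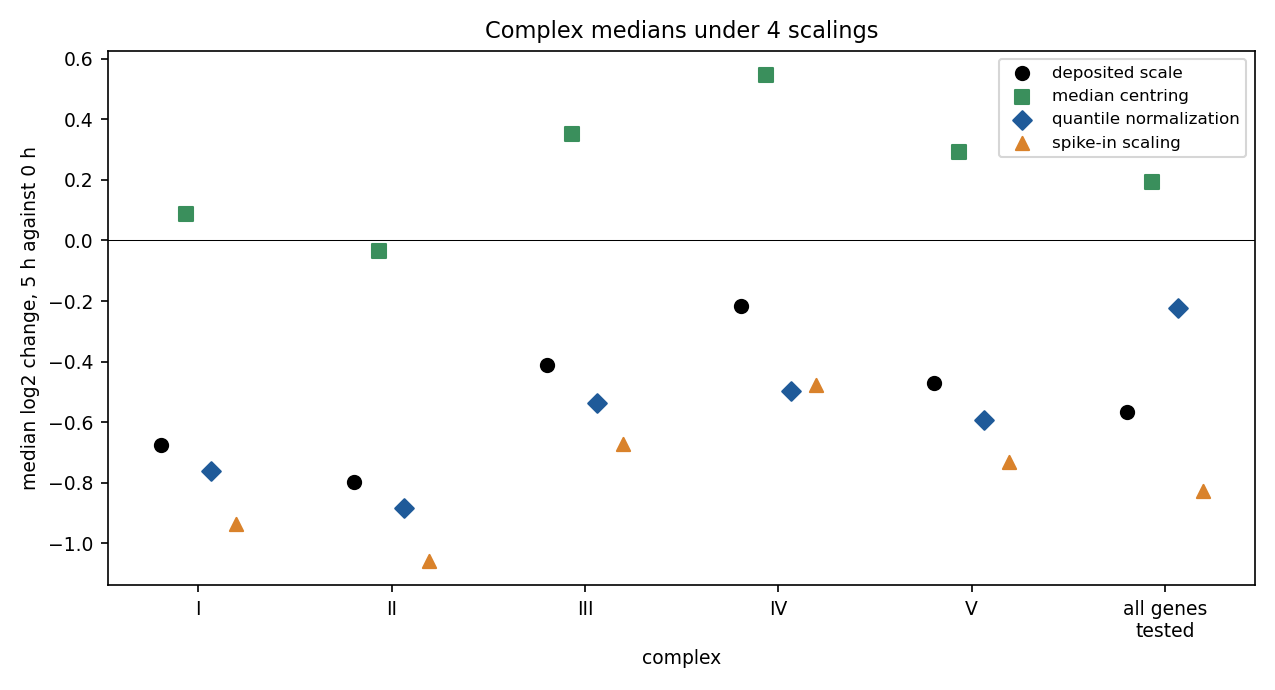
The y axis is the median log2 change at 5 h against 0 h of the members of each complex and of all genes tested (x axis), under the deposited scale, median centring, quantile normalization and spike-in scaling. With median centring the medians of complexes I, III, IV and V rise above 0, to between 0.09 and 0.55. Median centring and spike-in scaling move all members nearly alike, so an order of complexes can differ mainly with quantile normalization. There complexes I to V stand at −0.76, −0.88, −0.54, −0.50 and −0.59.

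The pathways that feed or build the chain were set beside it. Of 13 citric acid cycle genes tested, 10 were lower at 5 h and 1 was higher, with a median of −0.94 (−0.18 with median centring). Idh3g, a subunit of isocitrate dehydrogenase, changed by −1.84 ± 0.14 and Fh1, fumarase, by −1.77 ± 0.10, while Dld, the dihydrolipoamide dehydrogenase shared by several complexes, rose by 0.62 ± 0.11, a call lost without the wild-type array at 0 h and with spike-in scaling. Of 74 genes of the mitochondrial ribosome, which translates the subunits encoded in mitochondria, 54 were lower and 5 were higher (median −0.81, or −0.05 with median centring). At 1 h 12 of the 74 (16.2%) were already lower, beside 5.91% of all genes tested. That count was 5 with median centring and 9 with quantile normalization, and it was not followed with an array left out. The cytoplasmic ribosome had 29 of 44 genes lower and none higher (median −0.45, or 0.31 with median centring).

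Assembly factors whose names lie outside the chosen prefixes had 19 of 27 genes lower and 3 higher at 5 h (median −0.65, or 0.11 with median centring). Bcs1l, which inserts the Rieske protein into complex III, went from 183 to 22.4 in wild type and from 236 to 16.1 in knockout, where the last value is under the floor. Like Ndufaf7, it exceeded the array median only at 0 and 1 h. Sco2, a copper chaperone of complex IV, was lower at 5 h (−1.74 ± 0.11) and at 1 h (−0.77 ± 0.11, adjusted p 0.0275), the latter a call lost with median centring (−0.59) or when any 1 of the 0 h and 1 h arrays was left out. Cox17, the chaperone that brings copper to complex IV, rose: it read 1406, 1708 and 3667 in wild type, with 1088, 1400 and 3342 in knockout (1.50 ± 0.12, adjusted p 0.00084). Of 12 carriers, pores and other electron entry genes, 7 were lower and 2 higher (median −0.45, or 0.31 with median centring). Gpd2, which passes electrons from glycerol phosphate to the quinone pool, rose by 2.46 ± 0.12. Of 5 inhibitors and substitutes of subunits, 4 were lower and Higd1a, a hypoxia-induced partner of complex IV, was higher (0.98 ± 0.12), but it stood at −0.11 when the probe sets of each gene were averaged.

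Regulators of mitochondrial biogenesis moved both ways, with 6 of 17 higher and 9 lower at 5 h (median −0.43, or 0.33 with median centring). Myc read 76.5, 1016 and 107 in wild type, with 51.4, 1469 and 152 in knockout. It changed by 4.28 ± 0.32 at 1 h (adjusted p 0.00677) and by 1.03 ± 0.32 at 5 h. Ppargc1b read 48.5, 18.8 and 130 in wild type, with 95.7, 10.2 and 187 in knockout. It was lower at 1 h (−1.88 ± 0.27, adjusted p 0.028) and higher at 5 h (1.19 ± 0.27). Neither exceeded the array median at 0 h, and Ppargc1b did so only at 5 h. Gabpb1, a subunit of the ETS factor GABP, read 118, 374 and 377 in wild type, with 161, 378 and 383 in knockout, and was higher at 1 h (1.45 ± 0.16, adjusted p 0.015) and at 5 h (1.47). The 1 h call was lost without wild type at 0 or 1 h (1.24 and 1.34) or knockout at 1 h (1.56). Gabpa, for another GABP subunit, was lower at 5 h at the deposited scale (−0.43 ± 0.11) and was not followed singly under the alternatives. Tfam, which packs mitochondrial DNA and takes part in starting its transcription, read 411, 193 and 194 in wild type, with 475, 206 and 321 in knockout, and was lower at 1 h (−1.15 ± 0.19, adjusted p 0.0386), a call lost when any 1 of the 0 h and 1 h arrays was left out. Its fall at 5 h (−0.82) was not called with median centring (−0.06). Tfb2m, a mitochondrial transcription factor, changed by −2.40 ± 0.27 at 5 h. Hif1a, the hypoxia factor, rose by 0.98 ± 0.10 and Esrra, an oestrogen-related receptor, by 0.86 ± 0.12. Nrf1 was higher by 0.39 ± 0.10, a call lost whichever array was left out.

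Between the genotypes no member was called. Of all genes tested 0% were higher in knockout and 0.0133% were lower, which is 1 gene, the Y-linked Eif2s3y. The deleted gene Nfkbib and Xist, whose signals lay far apart between the genotypes at every time, were thus not called either. A missing call in this comparison therefore does not show equal signals. At an unadjusted p under 0.05 there was 1 member, Cox6a2 (−0.34, p 0.0428), and 630 of the 7510 genes, and limma with a trend called no member. The median of the members, knockout minus wild type, was −0.10 on the log2 scale, and complexes I, II, III, IV and V had medians of −0.12, −0.06, −0.06, −0.15 and −0.10.

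Most members read lower in knockout at each time at the deposited scale. At 0, 1 and 5 h, 63, 70 and 62 of the 81 members read lower in knockout (77.8%, 86.4% and 76.5%), beside 48.9%, 53.1% and 57.6% of all genes tested. The counts moved with the scaling: they were 69, 52 and 35 with median centring (85.2%, 64.2% and 43.2%), beside 58.7%, 37.2% and 42.0% of all genes tested. With quantile normalization they were 59, 69 and 64 (72.8%, 85.2% and 79.0%), beside 51.1%, 51.0% and 52.6% of all genes. With spike-in scaling they were 38, 79 and 49 (46.9%, 97.5% and 60.5%), beside 32.7%, 70.0% and 50.04%. With 1 array a genotype at each time these are values with no test.

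The LPS change at 5 h was then compared between the genotypes. Knockout change minus wild-type change had a median of −0.00 and an SD over the 81 genes of 0.23, and 59 lay within 0.25 log2 units of 0. The largest gaps were those of Ndufaf4 (−0.78), Cox7a2l (−0.63) and Ndufb1 (−0.51) below 0 and of Cox6a2 (0.38) above it. Each rests on 4 arrays with no replicate, and none could be tested.

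**Figure D5:**
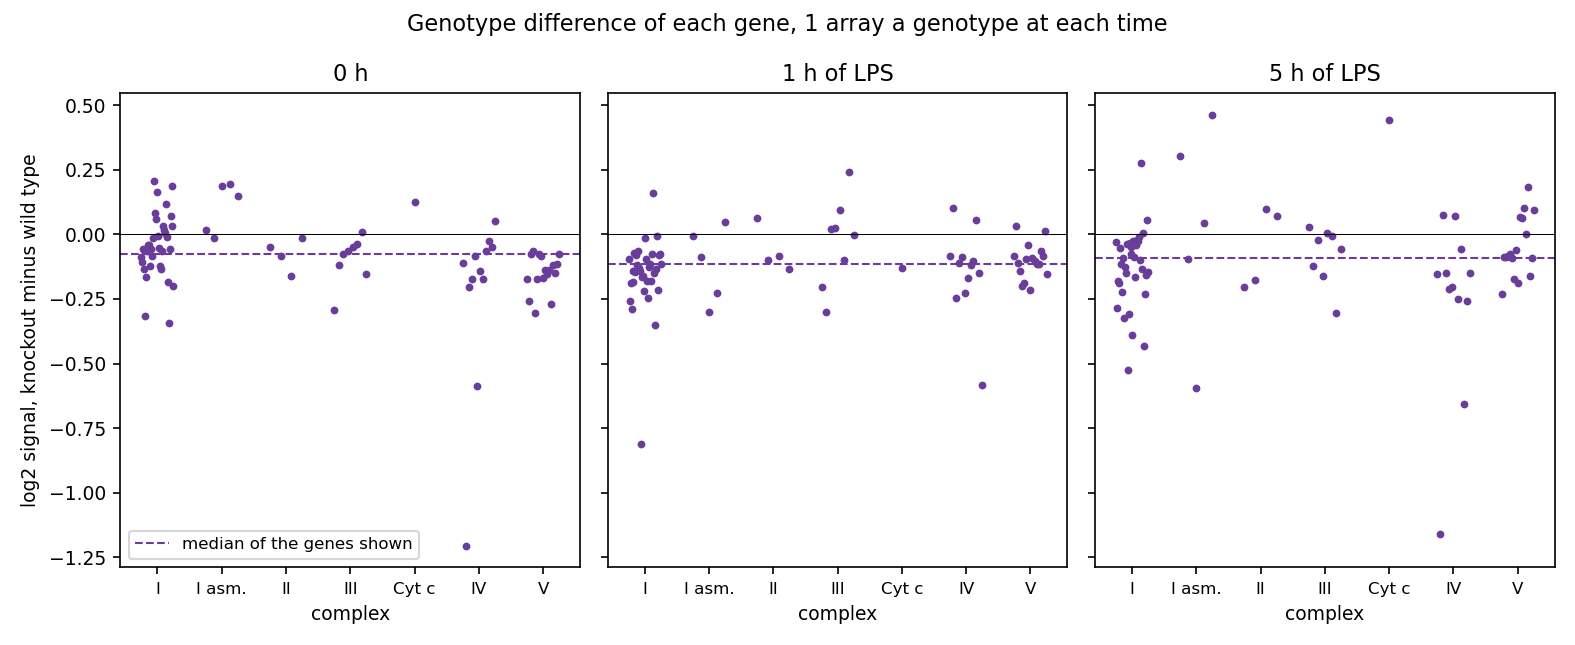
Each point is 1 member, with its log2 signal in knockout minus that in wild type on the y axis and its complex on the x axis, at 0, 1 and 5 h at the deposited scale. The dashed lines are the medians of the members, at −0.08, −0.11 and −0.09. The lowest point at 0 h and at 5 h is Cox4i2, whose signals were 22.5 to 72.5. The share below 0 at 5 h was 76.5% as plotted, beside 57.6% of all genes tested, and 43.2% with median centring, beside 42.0%.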

How the data were processed

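RNA was labelled with biotin and hybridised to 1 array per genotype and time. Per the labels, the authors deposited a MAS5 signal, a linear intensity, for each of 22690 probe sets. The sources used here name neither the MAS5 version nor its scaling target. Of the probe sets, 20393 have 1 gene symbol and 691 have several; 8 of the latter carry a respiratory chain symbol and were left out. A floor of 18.2, the 25th percentile over all arrays, was set on the signals ahead of the log2 step. Terms for genotype and time were fitted additively in limma 3.58.1 (R 4.3.3), with 2 residual degrees of freedom and a prior of 2.18, adjusted by Benjamini-Hochberg over 7510 genes. Its errors measure how far the genotypes differ in their LPS change and cover no spread between mice or cultures. On simulated data it recovered 76 of 100 genes changed by 1 log2 unit, with 12 false calls over the whole run. That simulation changed few genes, all upward, with noise independent between genes. In the data 5518 of the 7510 genes were called at 5 h against 0 h, so these counts give no error rate for them.

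Alternatives were median centring, quantile normalization, scaling on 18 spiked-in control probe sets, a floor at the 10th percentile, log2(signal + 16), no filter, a filter on 3 arrays, the mean of probe sets, limma with a trend, no genotype term and leaving out each array, with the filter and the probe sets chosen on all 6. The members and gene lists were chosen with earlier results of these data known. Any member could be named. Signals, changes or both were given for the 3 largest rises and falls of a complex at 5 h and the largest at 1 h. They were also given for tissue isoforms, X-linked genes, genes with disagreeing probe sets and some of the regulators that passed a test. Motif letters were searched as 9-letter forms of longer known motifs. Coordinates and promoter windows are those of RefSeq on GRCm38.p6.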

Additional observations from a re-analysis of the deposited data

How the results depend on the processing

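Depth is limited to 1 array for each genotype and time, so no setting measures the spread between mice. Median centring changed the counts most: 24 members were higher and 10 lower at 5 h against 0 h, and 23 higher and 6 lower against 1 h. Of the 7510 genes tested it called 2926 higher and 2042 lower against 0 h, and 2737 higher and 1815 lower against 1 h. Higher members between 1 and 5 h numbered 7 with quantile normalization, 2 with spike-in scaling, 7 with the filter on 3 arrays and 8 with limma's trend. Of all genes tested these settings called 1858, 1038, 1284 and 1497 higher. Lower members at 1 h numbered 1 with quantile normalization, 1 with the mean of probe sets and 13 with limma's trend. Of all genes tested these settings called 364, 490 and 918 lower. Leaving out 1 array gave 2 to 4 higher and 30 to 50 lower genes at 5 h against 0 h, and 2 to 4 and 11 to 28 against 1 h. The cause was not tested in each case, except that a left-out array leaves fewer samples. No paired analysis was possible because each condition has 1 array, so that no replicate number pairs arrays beyond their genotype. The genotype term of the model already compares the times within a genotype, and without it 4 members were higher and 58 lower at 5 h against 0 h, and 6 and 38 against 1 h. Of all genes tested 1450 were then higher and 3995 lower against 0 h, and 1369 and 3355 against 1 h.

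With median centring 45 of the 81 members tested went from below 0 to above it at 5 h against 0 h, with quantile normalization 1 did and 2 went the other way, and with spike-in scaling 4 went from above 0 to below. Among the genes followed singly in the text, these changed sign. With median centring, the changes at 5 h became Atp5g3 0.65, Atp5a1 0.52, Atp5d 0.091, Atp5e 0.017, Atp5o 0.36, Cox5b 0.60, Cox6c 0.62, Ndufb2 0.25, Ndufs1 0.12, Ndufv1 0.068, Cox4i1 0.46, Cox6a1 0.39, Cox6b1 0.35, Cox7a2 0.50, Cox8a 0.20, Ndufa1 0.30, Ndufa4 0.089, Ndufab1 0.48, Ndufaf5 0.41, Sdha 0.050, Sdhc 0.34, Uqcr10 0.13, Uqcrb 0.46, Uqcrh 0.58 and Uqcrq 0.15, those at 1 h Atp5mpl 0.090 and Ndufaf3 0.084, and the genotype difference of Sdhd 0.029. With quantile normalization, Ndufaf5, Atp5pb and Cox5a stood at 0.42, −0.15 and −0.19 at 5 h, Cycs at −0.00030 at 1 h and Atp5md at −0.033 between the genotypes. With spike-in scaling, Atp5md, Atp5pb, Cox5a and Cox6a2 stood at −0.041, −0.13, −0.26 and −0.12 at 5 h, and Cycs and Uqcrfs1 at −0.043 and −0.046 at 1 h. With the mean of probe sets, Higd1a and Cox5a stood at −0.11 and −0.16 at 5 h. Leaving out 1 array gave at 1 h −0.028 to 1.26 for Cox4i2, −0.17 to 0.24 for Cycs and −0.00799 to 0.069 for Uqcrfs1, and at 5 h −0.15 to 0.15 for Cox5a, −0.046 to 0.32 for Cox6a2 and −0.40 to 0.029 for Uqcrh. For the genotype difference it gave −0.092 to 0.060 for Atp5md, −0.00044 to 0.29 for Cycs, −0.073 to 0.028 for Sdhd and −0.021 to 0.050 for Uqcrc2. Of the values of these followed genes under an alternative, 1553 kept their sign and their side of the threshold, 136 were no longer past it, 45 were newly past it and 56 changed sign.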

Other observations

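Respiratory chain probe sets that match several symbols belonged to no comparison. The 2 probe sets of Ndufb4, a complex I subunit, and its gene copies changed by −0.95 and −0.99 at 5 h against 0 h, as the mean of the genotypes on the log2 scale. The probe set of Ndufs6 and a copy changed by −0.51, that of Ndufa11 and a copy by −0.25, and that of Ndufs5 and its pseudogene by −0.55.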
